A study of Coturnix japonica and Phalacrocorax auritus with 29 samples.

Results

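The comparison described here is that of embryonic liver of the Japanese quail (Coturnix japonica, JQ) given the high dose of chlorpyrifos, an organophosphate insecticide, with liver of quail embryos given the solvent alone. It holds 10 of the 29 libraries of the series, 5 control and 5 high dose libraries chosen by their labels, and all 22845 protein names counted in the quail table, of which 14927 had enough reads to be tested. Per the labels' protocols, un-incubated fertilized eggs received DMSO in the air cell, with or without chlorpyrifos, and were then kept at 37 °C and 60% humidity, so both groups carried the solvent. The labels give 0.4, 4 and 40 µg/g egg as nominal doses and do not tie them to the names medium and high. Each library came from 1 liver, sequenced as paired reads of 101 bp, and strain and sex are not given. All embryos are labelled day 9 except that of control replicate 5, which is labelled day 16.

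The liver of a bird embryo makes most proteins of the plasma, among them albumin, clotting factors, complement and carriers of lipids and hormones. It also builds and burns fatty acids, makes glucose, and sends bile salts and waste products into bile through membrane carriers. During incubation the main fuel is yolk lipid, and hepatocytes mature under the control of a small set of transcription factors. Induction of cytochromes P450, the enzymes that oxidise foreign compounds, is a well known response of the liver and is not described further here.

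Library totals ran from 15094176 to 26436594 counts in these 10 libraries. Levels are given as CPM, counts scaled to a common library size after TMM normalisation, and differences as log2 fold changes with their standard error, so that a gene said to rise or fall by a value did so on the log2 scale. A protein name was called changed at an adjusted p under 0.05 (edgeR quasi-likelihood test, Benjamini-Hochberg over all names tested). Each of the 14 hepatocyte markers was detected in both groups, SERPINA1 at no more than 1.93 CPM and at 0 in high dose replicate 5. Most of their summed level was albumin. The sum ran from 227970.0 to 272548 CPM in controls and from 114787 to 210414 CPM at the high dose. Their median log2 fold change was -0.60, but not all were lower. HNF4A stood at 23.6 to 44.8 CPM in controls and 32.1 to 76.0 CPM at the high dose. APOA1 stood at 7861 to 10394 CPM in controls and 9766 to 15547 CPM at the high dose. In bulk liver, fewer cells of a type and less RNA per cell cannot be told apart.

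High dose replicate 1 also carried kidney markers. Cubilin (CUBN), a receptor of the proximal tubule, stood at 278 CPM there and at 1.24 CPM or less in the other 9 libraries of the comparison. Calbindin 1 (CALB1) and PAX2, a transcription factor of the embryonic kidney, stood at 183 and 13.1 CPM there and at 0.507 and 0.214 CPM or less in the other 9. The 9 kidney markers matched summed to 2239 CPM in that library, to 33.3 to 57.9 CPM in the other high dose libraries and to 47.7 to 101 CPM in controls. AQP2 and UMOD were at 0 in all high dose libraries. The pancreas markers summed to 49.8 CPM in control replicate 2, most of it glucagon (GCG) at 44.0 CPM, and to at most 1.65 CPM in the other 9. The 6 gut markers matched summed to 8.53 to 26.6 CPM in controls and 16.5 to 101 CPM at the high dose. Most of the highest sum, that of high dose replicate 5, was the fatty acid binding protein FABP2, at 92.3 CPM. Replicate 2 of the same group had 50.4 CPM of it, and no control had more than 18.3 CPM. The gut proteins VIL1 and CDX2 stood at 0.641 and 0.867 CPM in high dose replicate 5, within their range in controls. CDX1 and CDH17 also lay within their control range there. FABP6 stood at 5.16 CPM in that library, just above its highest control at 5.03 CPM. In high dose replicate 2, CDX1, CDX2 and VIL1 stood at 0.225, 2.25 and 1.46 CPM. Their highest controls were 0.138, 1.16 and 0.959 CPM, while CDH17 and FABP6 lay within their control range in that replicate. CDH17 stood at 20.8 CPM in high dose replicate 1, against at most 4.60 CPM in controls. Of the 5 gut markers tested edgeR and limma voom called 0 and DESeq2 1, and 2 had an unadjusted p under 0.05. Values without some of these libraries are given for some results only, and the part of these tissues in a result was not tested.

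In all, 531 of the 14927 protein names were called, which is 3.56%. Of these 316 rose (2.12%) and 215 fell (1.44%). At an unadjusted p under 0.05 there were 2479 (16.6%). Leaving out 1 library at a time gave 303 to 659 calls, and the count dropped by more than 1.5 times without high dose replicate 5 (340) or control replicate 1, 2 or 4 (303, 347 and 309). Without high dose replicate 1, 485 were called (3.25%), 314 higher (2.10%) and 171 lower (1.15%). Without 4 libraries with markers of other tissues (high dose replicate 1, control replicate 2 and medium dose replicates 1 and 5), a choice that kept high dose replicates 2 and 5 with their higher FABP2, 377 were called (2.49%), 242 higher (1.60%) and 135 lower (0.891%), a choice made after seeing the data. The 27 lists of liver functions together held 1571 tested names, of which 127 were called (8.08%). These lists were chosen with earlier results of these data known, so this share is not an independent comparison with 3.56%. The other 404 of the 531 calls were in none of these lists. The share called was highest for heme synthesis and breakdown (7 of 30), for carriers of sugars and monocarboxylates (7 of 34) and for bile acid synthesis and transport (5 of 26). It was lowest for cell cycle and DNA replication (1 of 106), cholesterol synthesis and transport (1 of 41) and sphingolipids (1 of 40). Calls in the highest lists included members of other roles. These were CYB5A, POR, PGRMC1 and TSPO2 in the heme list, the sulfate carrier SLC26A1 in the sugar list and the drug pump ABCB1 in the bile acid list. All 5 high dose libraries lay above all controls for 2.70% of the names tested and below all controls for 2.20%. Of the 127 called list members, 99 were also called without high dose replicate 1, 75 without control replicate 5 and 56 in every one of 10 fits that each left out 1 library, with the same direction in all of these.

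**Figure D1:**
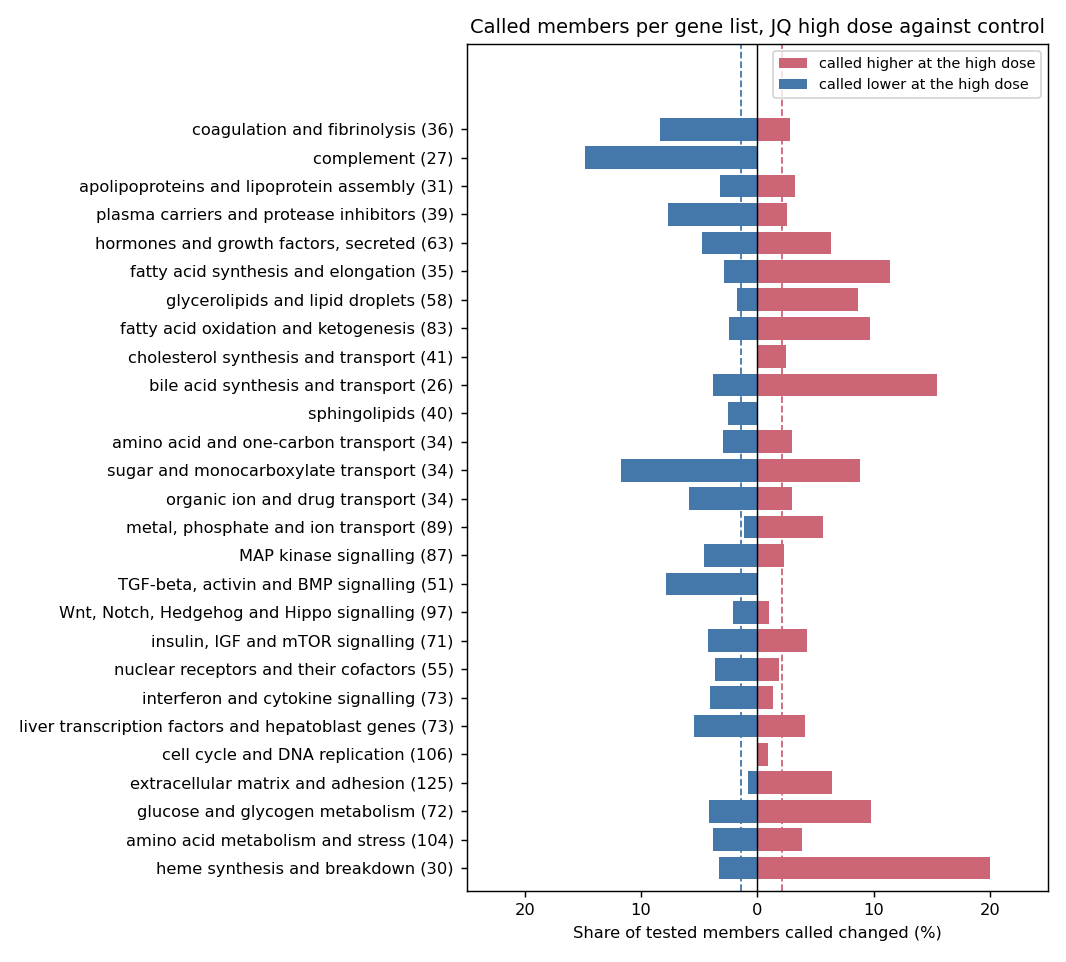
Share of the tested members of each of 27 gene lists called higher (to the right) or lower (to the left) at the high dose, with the number tested in parentheses; dashed lines mark the shares over all 14927 names, 2.12% higher and 1.44% lower. Complement genes lie to the left only, and fatty acid oxidation genes mostly to the right.

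The called complement genes, of the plasma cascade that marks and lyses microbes, were lower at the high dose. Of 27 tested genes of the list 4 fell and 0 rose (14.8%, against 3.56% of all names), and 2 fell without high dose replicate 1. The list had a median log2 fold change of -0.41 against 0.0077 over all names. Complement C3, its central component, stood at 673, 636, 366, 1369 and 1578 CPM in controls 1 to 5 and at 29.6, 90.6, 91.4, 82.7 and 88.8 CPM in high dose replicates 1 to 5. The highest high dose library was 4.00-fold below the lowest control. C3 thus fell by 3.59 ± 0.64 (adjusted p 0.00612). The terminal components C6 and C8G changed by -2.60 and -0.91, and vitronectin (VTN), which restrains the terminal complex, by -0.50 (adjusted p 0.032, 0.0216 and 0.0418). Control replicate 3 held C6 at 0.895 CPM, inside the high dose range of 0.384 to 1.75 CPM. Calls of these 3 depended on single libraries: C6 lost its call without control 1, 2, 4 or 5 or high dose 1, 3, 4 or 5 (adjusted p up to 0.0844), C8G without control 1, 4 or 5 or high dose 3 or 5 (adjusted p up to 0.0623), and VTN without any 1 of the 5 controls or high dose 1, 3 or 5 (adjusted p up to 0.113). A feature named complement C3-like was also called lower, and reads of near-identical proteins can be shared between such names.

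Of 36 clotting genes tested 3 fell and 1 rose (11.1%), with a median of -0.18. Plasminogen (PLG), the precursor of the enzyme that dissolves fibrin, stood at 3699.7, 2892, 2902, 3685 and 3108 CPM in controls and 1081, 2065, 1657, 2220.5 and 1482 CPM at the high dose, and no high dose library reached the controls. Its log2 fold change was -0.94 ± 0.18 (adjusted p 0.00941). Factor XII (F12), which starts the contact pathway, fell from 763 ± 118 to 415 ± 107 CPM (mean ± SD, n = 5 each), with a log2 fold change of -0.88 ± 0.19 (adjusted p 0.0177), a call lost without control 1 (adjusted p 0.0508). Prothrombin (F2) fell by 0.54 (adjusted p 0.0284) and lost its call without control 1, 3, 4 or 5 or high dose 3 or 5 (adjusted p up to 0.0722). HABP2, a serine protease that can activate factor VII, rose by 1.34 (adjusted p 0.0411) and lost its call without control 1, 2, 3 or 5 or high dose 3, 4 or 5 (adjusted p up to 0.107). The 3 fibrinogen chains FGA, FGB and FGG missed the threshold, at -0.91, -1.01 and -0.78 on the log2 scale (adjusted p 0.176, 0.161 and 0.321), although all 5 high dose libraries lay below all controls for FGA and FGB.

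Of the plasma carriers and protease inhibitors, 3 fell and 1 rose of 39 tested (10.3%, against 3.56% of all names), with a median of -0.26. The feature named alpha-2-macroglobulin-like protein 1 (A2ML1), a protease inhibitor, stood at 1430.2, 1516, 1858, 2045 and 2329 CPM in controls and at 487, 669, 245, 1008 and 522 CPM at the high dose. The groups did not overlap, and the log2 fold change was -1.65 ± 0.33 (adjusted p 0.0114). IGFALS, which holds insulin-like growth factors in the circulation, fell from 29.9 ± 18.2 to 6.50 ± 4.19 CPM (log2 fold change -2.21 ± 0.51, adjusted p 0.0281) and lost its call without control 4 or 5 or high dose 3 (adjusted p up to 0.0805). Autotaxin (ENPP2), the plasma enzyme that makes lysophosphatidic acid, fell by 1.14 (adjusted p 0.0212), a call lost without control 5 (adjusted p 0.051). Secreted phosphoprotein 2 (SPP2), which is in no list and was picked with its values in view, fell from 2643 ± 529 to 1217 ± 407 CPM (log2 fold change -1.12 ± 0.25, adjusted p 0.0215), a call lost without control 1 or 4 or high dose 3 or 5 (adjusted p up to 0.0609). Of the 14 hepatocyte markers edgeR and limma voom called 0 and DESeq2 4, with 9 at an unadjusted p under 0.05 and a median of -0.60. Albumin (ALB) stood at 163532, 141290.0, 182556, 153446 and 136469 CPM in controls and 63476, 129879, 98139.7, 114852 and 111864 CPM at the high dose. All 5 high dose libraries were below all controls, but albumin, at -0.58 ± 0.21 on the log2 scale, missed the threshold (adjusted p 0.153), though not by DESeq2 (0.0491). Albumin and the fibrinogen chains were picked with their values in view.

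Genes of lipoproteins, the particles that carry lipid in plasma, went both ways. Of 31 tested genes of the list 1 rose and 1 fell (6.45%, against 3.56% of all names). Apolipoprotein A5 (APOA5), which promotes the clearance of plasma triglyceride, stood at 119, 225, 181, 194 and 299 CPM in controls and at 292, 338, 568, 443 and 693 CPM at the high dose. Replicate 1 lay just under control replicate 5, and the other 4 were above all controls. It rose by 1.198 ± 0.26 (adjusted p 0.0182). Hepatic lipase (LIPC), which trims plasma lipoproteins, fell by 0.60 (adjusted p 0.0356) and lost its call without control 1, 3, 4 or 5 or high dose 3 (adjusted p up to 0.0936). Apolipoprotein F (APOF), named as a member of the apolipoprotein family, fell from 132 ± 43.2 to 47.3 ± 24.6 CPM (log2 fold change -1.48 ± 0.34, adjusted p 0.0253), a call lost without control 2, 4 or 5 or high dose 1 (adjusted p up to 0.0702). The main structural proteins APOA1 and APOB changed by 0.44 and 0.19 and were not called (adjusted p 0.0774 and 0.755). Without high dose replicate 1, APOA1 passed at 0.03 with a log2 fold change of 0.52, and DESeq2 called it with all libraries (adjusted p 0.00561). Both were picked with their values in view.

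Secreted hormones and growth factors held 4 risers and 3 fallers among 63 tested (11.1%, against 3.56% of all names). Angiotensinogen (AGT), the source of angiotensin, stood at 740.4, 713, 795, 1034 and 531 CPM in controls and 161, 479, 296, 342 and 182 CPM at the high dose. All high dose values were below all controls, with a log2 fold change of -1.38 ± 0.28 (adjusted p 0.0121). Both called inhibin beta chains, the subunits of activins, fell. INHBC, a chain made mainly by liver, stood at 223, 149, 113, 342 and 188 CPM in controls and 46.7, 108, 12.4, 30.9 and 32.0 CPM at the high dose, with a log2 fold change of -2.14 ± 0.48 (adjusted p 0.0223) that was -2.73 without high dose replicate 2 and lost its call without control 1 or 4 or high dose 4 or 5 (adjusted p up to 0.0626). INHBA fell from 7.04 ± 3.05 to 0.953 ± 0.838 CPM (log2 fold change -2.88 ± 0.62, adjusted p 0.0189), or -3.58 without high dose replicate 1.

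The called risers of the same list included IGFBP1, PDGFA and VEGFC. IGFBP1, a binding protein of insulin-like growth factors that insulin represses in mammals, stood at 10.8, 9.02, 9.43, 11.9 and 6.81 CPM in controls and at 25.6, 32.0, 88.5, 31.6 and 223 CPM at the high dose. Every high dose library was above every control, and replicate 5 was the highest by far. Its rise was 3.06 ± 0.58 on the log2 scale (adjusted p 0.00941), and 2.21 without high dose replicate 5. PDGFA, a growth factor for mesenchymal cells, rose from 3.73 ± 0.717 to 15.4 ± 7.08 CPM (log2 fold change 2.04 ± 0.29, adjusted p 0.00115) and was above all controls in 5 of 5 libraries. VEGFC, a lymphatic growth factor, rose by 0.46 (adjusted p 0.0479) and lost its call without any 1 of the 5 controls or high dose 1, 3 or 4 (adjusted p up to 0.113). The fourth, a gastrin and cholecystokinin-like peptide, stood at 0.363, 0.0644, 0.138, 0 and 0.824 CPM in controls and 11.2, 5.46, 147, 29.4 and 236 CPM at the high dose (log2 fold change 8.14 ± 1.43, adjusted p 0.00606), or 7.31 without high dose replicate 5 and 9.01 without control replicate 5, and limma voom did not call it (adjusted p 0.234). High dose replicate 5 also had the highest gut marker sum, at 101 CPM. High dose replicate 3, with 147 CPM of the peptide, had the lowest gut marker sum of the high dose group, at 16.5 CPM. A part of gut tissue in this rise was not tested.

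Fibronectin (FN1), a matrix and plasma glycoprotein, stood at 1423, 1262, 1537, 1285 and 1546 CPM in controls and 2897, 2634, 8691, 4689.9 and 7206 CPM at the high dose. The controls lay within a narrow band, all high dose libraries were above it, and replicates 3 and 5 were the highest. Fibronectin rose by 1.89 ± 0.35 (adjusted p 0.00767), or 2.04 without high dose replicate 1. Tsukushi (TSKU), a small leucine-rich protein secreted by liver and named here as a riser outside the lists, stood at 45.3, 25.5, 98.6, 42.3 and 49.3 CPM in controls and 308, 249, 388, 296 and 389 CPM at the high dose. Control replicate 3 was the highest control and still 2.53-fold below the lowest high dose library. Its log2 fold change was 2.64 ± 0.31 (adjusted p 0.000156).

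**Figure D2:**
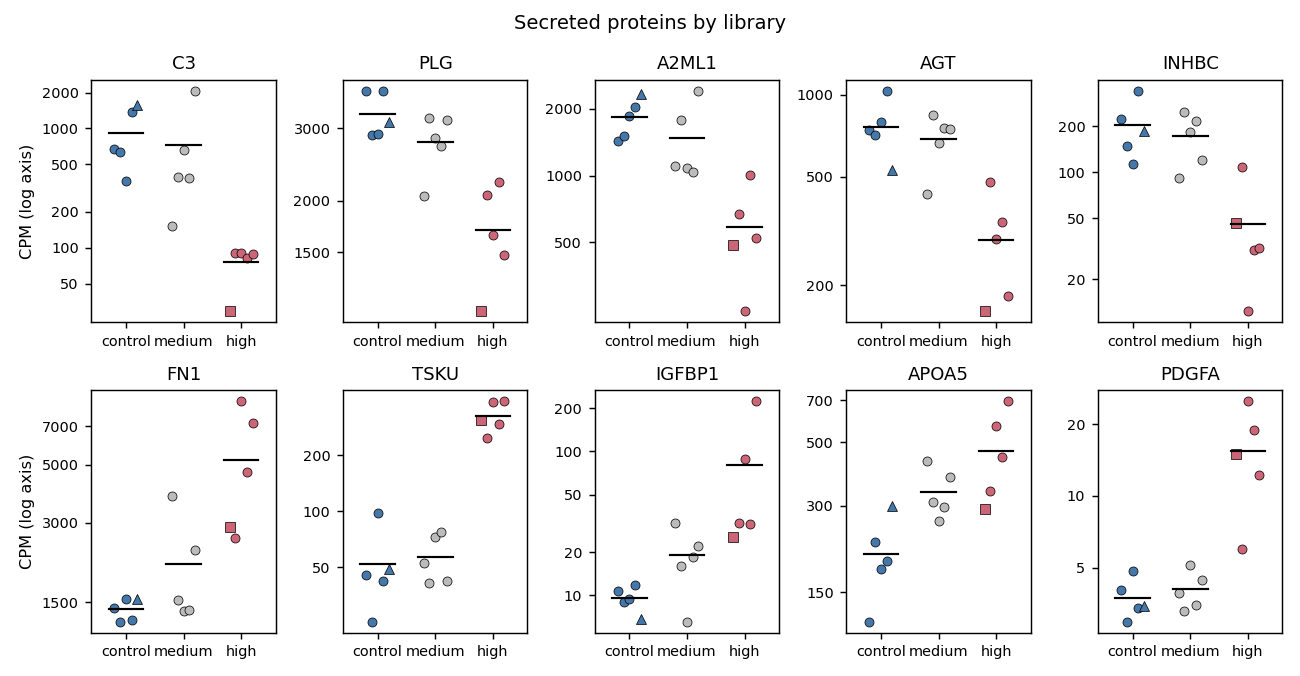
Level of 10 secreted proteins in each of the 15 quail libraries (CPM on a log axis), with a line at the group mean; squares mark high dose replicate 1 and triangles control replicate 5. C3, PLG, A2ML1, AGT and INHBC lie lower in every high dose library than in any control, and FN1, TSKU, IGFBP1 and PDGFA higher.

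Called members of the list of fatty acid synthesis and elongation mostly rose. Of 35 tested 4 rose and 1 fell (14.3%, against 3.56% of all names), with a median of 0.15. The risers were ELOVL5 and ACLY, with the nuclear receptor PPARG and the NADPH source IDH1, which do not themselves make or lengthen fatty acids. ELOVL5, which elongates polyunsaturated fatty acids, stood at 12.7, 14.9, 14.5, 10.2 and 16.9 CPM in controls and 90.8, 38.6, 53.0, 51.8 and 27.6 CPM at the high dose. All high dose libraries were above all controls and replicate 1 was the highest. ELOVL5 rose by 1.92 ± 0.28 (adjusted p 0.00121) and by 1.63 without that replicate. PPARG, the nuclear receptor that drives fat storage, stood at 1.63, 0.838, 1.17, 2.05 and 1.48 CPM in controls and 5.16, 3.66, 5.91, 3.99 and 5.28 CPM at the high dose, without overlap, and rose by 1.73 ± 0.23 (adjusted p 0.000649). ACLY, which supplies cytosolic acetyl-CoA, rose by 1.35 (adjusted p 0.0351) with high dose replicate 2 inside the control range, and IDH1, a source of cytosolic NADPH, rose by 1.17 (adjusted p 0.0245). ACLY lost its call without control 1, 2, 3 or 4 or high dose 3, 4 or 5 (adjusted p up to 0.0953), and IDH1 without control 1, 2, 4 or 5 or high dose 5 (adjusted p up to 0.0677). SCAP, the sterol sensor that escorts the SREBP transcription factors, fell by 0.43 (adjusted p 0.0374) and lost its call in each of the 10 fits that left out 1 library (adjusted p up to 0.0924). FASN, the fatty acid synthase itself, had a log2 fold change of 0.69 and was not called (adjusted p 0.328), nor was SREBF1 (0.85, adjusted p 0.288), both picked after their values were seen.

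Of 58 glycerolipid and lipid droplet genes, 5 rose and 1 fell (10.3%, against 3.56% of all names), and 3 rose without high dose replicate 1. Lipin 1 (LPIN1), the phosphatase that turns phosphatidate into diacylglycerol and also a transcriptional coactivator, stood at 1.41, 2.13, 1.79, 2.69 and 1.65 CPM in controls and 13.3, 6.20, 21.4, 14.9 and 9.23 CPM at the high dose. The groups did not overlap, and its log2 fold change was 2.76 ± 0.48 (adjusted p 0.00489). The 3 called enzymes of the first step, glycerol-3-phosphate acylation, did not move together. The mitochondrial GPAM stood at 83.6 to 122 CPM in controls and 56.5 to 74.4 CPM at the high dose and fell by 0.61 ± 0.13 (adjusted p 0.0172). The microsomal GPAT3 and GPAT4 rose by 0.86 and 0.42 (adjusted p 0.047 and 0.0198), and lost their calls without any 1 of the 5 controls or high dose 1, 3 or 4 (adjusted p up to 0.118) for GPAT3 and without control 1, 2 or 4 or high dose 3 (adjusted p up to 0.0581) for GPAT4. HSD17B11, a lipid droplet dehydrogenase, rose by 0.71 ± 0.14 (adjusted p 0.00862) with all 5 libraries above all controls. The lysosomal lipase LIPA rose by 0.92 (adjusted p 0.0407) and lost its call without any 1 of the 5 controls or high dose 1, 3 or 5 (adjusted p up to 0.101).

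Of 83 fatty acid oxidation genes tested 8 rose and 2 fell, with a median of 0.12, and without high dose replicate 1 9 rose and 1 fell. The bifunctional EHHADH, an enzyme of the peroxisomal cycle, stood at 189, 184, 167, 175 and 159.7 CPM in controls and 442, 273, 301, 301 and 269.6 CPM at the high dose. The groups did not overlap, and replicate 1 was the highest. Its log2 fold change was 0.86 ± 0.14 (adjusted p 0.00287). ACAD11, an acyl-CoA dehydrogenase, rose by 0.61 ± 0.12 (adjusted p 0.011). The medium-chain acyl-CoA synthetases ACSM5 and ACSM4 rose by 0.92 ± 0.15 and 0.95 ± 0.16 (adjusted p 0.00284 and 0.00423). Other features named for ACSM4 rose by more. The feature named acyl-CoA synthetase medium chain family member 4 rose by 4.06 ± 1.05 (adjusted p 0.0457). An ACSM4-like feature rose by 4.53 ± 1.15 (adjusted p 0.0442). CPT1A, the gate for fatty acids into mitochondria, had a log2 fold change of 0.54 and was not called (adjusted p 0.204).

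The cytosolic fatty acid binding proteins moved in opposite directions. The feature named fatty acid binding protein, liver (FABP1) stood at 220.3, 195, 154, 234 and 243 CPM in controls and 65.9, 71.0, 30.7, 61.6 and 28.7 CPM at the high dose. FABP7, the brain-type member, stood at 19.1, 24.2, 18.0, 15.5 and 21.2 CPM in controls and 125, 129, 33.6, 56.1 and 69.0 CPM at the high dose. Neither gene overlapped between the groups. FABP1 fell by 2.02 ± 0.44 (adjusted p 0.0207), a call lost without high dose 3 or 5 (adjusted p up to 0.0563), and FABP7 rose by 2.08 ± 0.31 (adjusted p 0.00144).

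In the cholesterol list 1 of 41 rose (2.44%, against 3.56% of all names). This was HMGCS1, the cytosolic synthase that opens the sterol pathway, at 57.5, 77.1, 58.8, 47.8 and 91.7 CPM in controls and 188, 105, 324, 244 and 648 CPM at the high dose. All high dose libraries exceeded all controls, with a log2 fold change of 2.18 ± 0.40 (adjusted p 0.00766). ACAT2, the cytosolic thiolase, which is in the oxidation list, rose by 0.74 (adjusted p 0.0374) and lost its call without control 1, 3, 4 or 5 or high dose 3, 4 or 5 (adjusted p up to 0.1). CPT1A was picked after its values were seen.

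**Figure D3:**
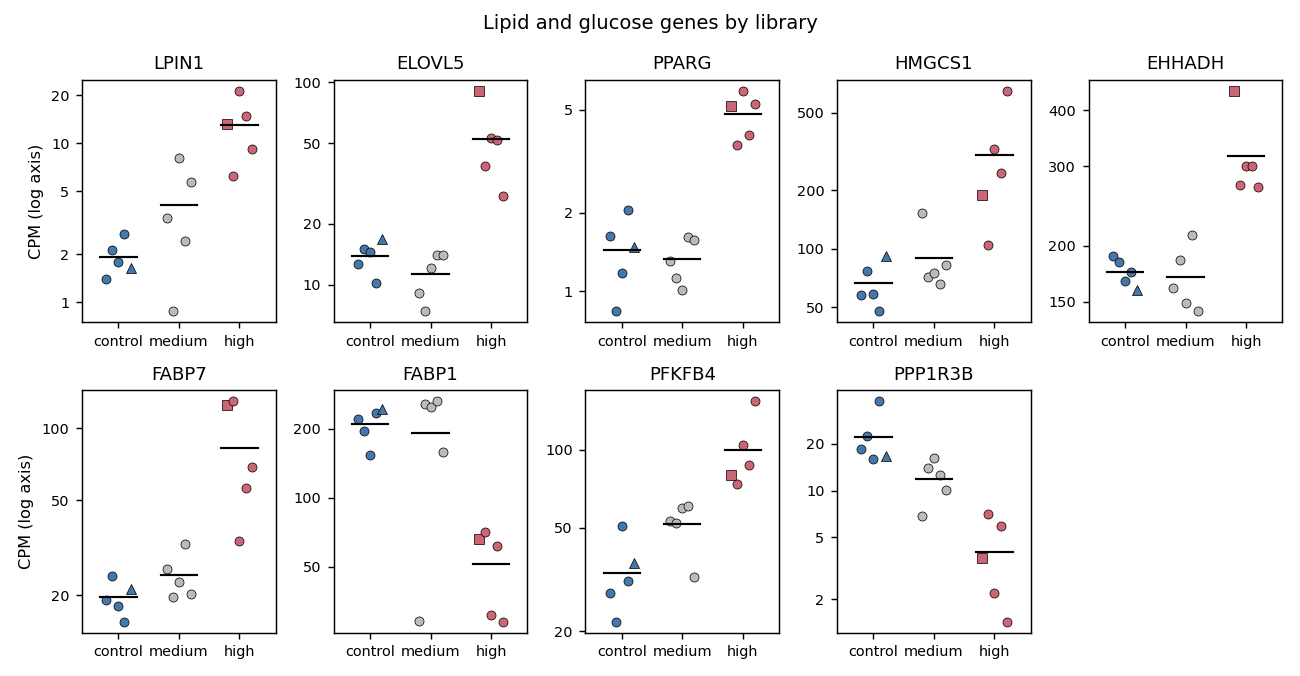
Level of 7 lipid genes and 2 genes of glucose handling in each of the 15 quail libraries (CPM on a log axis), with a line at the group mean; squares mark high dose replicate 1 and triangles control replicate 5. FABP1 and PPP1R3B lie lower and the other 7 higher in every high dose library than in any control.

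Bile acid genes counted 4 risers and 1 faller of 26 tested (19.2%, against 3.56% of all names). The canalicular pump ABCC2, which exports conjugated anions into bile, stood at 179 to 242 CPM in controls and 275 to 409 CPM at the high dose and rose by 0.70 ± 0.14 (adjusted p 0.0114). ABCB1, the broad drug pump, and ABCB4, the phosphatidylcholine pump, rose by 1.28 ± 0.22 and 1.53 ± 0.24 (adjusted p 0.00516 and 0.00257). SLC51B, a subunit of the carrier that returns bile acids to blood, stood at 7.58, 7.28, 3.99, 7.86 and 11.9 CPM in controls and 17.5, 14.7, 114, 17.1 and 28.9 CPM at the high dose, with replicate 3 far above the others. Its log2 fold change of 2.31 ± 0.59 (adjusted p 0.0453) was 1.34 without high dose replicate 3, and the call was lost without any 1 of the 5 controls or high dose 3 or 5 (adjusted p up to 0.108). AMACR, a racemase of bile acid precursors, fell by 0.86 (adjusted p 0.0411) and lost its call without control 1, 2, 4 or 5 or any 1 of the 5 high dose libraries (adjusted p up to 0.108). In the sphingolipid list 1 of 40 fell (2.50%, against 3.56% of all names). This was the ganglioside activator GM2A (-3.31, adjusted p 0.0245), whose size rested on control replicate 1 at 357 CPM (-1.88 without it). Its call was lost without high dose 3, 4 or 5 (adjusted p up to 0.0612).

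Transport of sugars and monocarboxylates showed 3 risers and 4 fallers of 34. Among the fallers, the monocarboxylate carrier SLC16A7, the fructose carrier SLC2A5 and the intracellular hexose carrier SLC2A8 fell, with log2 fold changes of -0.55, -0.64 and -0.50 (adjusted p 0.046, 0.0441 and 0.0469). Each of these 3 lost its call in 8 of the 10 fits that left out 1 library: SLC16A7 without any 1 of the 5 controls or high dose 2, 3 or 5 (adjusted p up to 0.12), SLC2A5 without control 1, 2, 3 or 5 or high dose 1, 2, 3 or 5 (adjusted p up to 0.102), and SLC2A8 without control 1, 2, 4 or 5 or high dose 1, 3, 4 or 5 (adjusted p up to 0.12). Outside the list, features named monocarboxylate transporter 2, another name of SLC16A7, and monocarboxylate transporter 2-like fell by 0.72 and 0.65 (adjusted p 0.0185 and 0.0255). A feature named facilitated glucose transporter member 11-like, also outside the list, rose by 2.74 ± 0.56 (adjusted p 0.0139). The risers of the list were SLC26A1, SLC16A6 and SLC16A5. SLC26A1, a sulfate carrier, stood at 0.344 to 1.35 CPM in controls and at 30.9, 2.42, 6.06, 1.501 and 3.13 CPM at the high dose and rose by 3.55 ± 0.75 (adjusted p 0.0177), or by 2.13 without high dose replicate 1, and lost its call without control 1 (adjusted p 0.0544). SLC16A6, a carrier of ketone bodies in fish liver, and SLC16A5 rose by 1.97 and 1.62 (adjusted p 0.0418 and 0.0421), and lost their calls without any 1 of the 5 controls or high dose 1 or 3 (adjusted p up to 0.108) for SLC16A6 and without control 1, 2, 3 or 5 or high dose 2, 4 or 5 (adjusted p up to 0.112) for SLC16A5.

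Of carriers of organic ions and drugs 1 rose and 2 fell of 34 (8.82%, against 3.56% of all names). SLC22A16, a carnitine and organic cation carrier, stood at 9.84, 7.60, 6.75, 7.22 and 7.74 CPM in controls and 33.7, 21.9, 17.7, 22.6 and 22.8 CPM at the high dose and rose by 1.60 ± 0.18 (adjusted p 0.000101). The mitochondrial pyruvate carrier subunit MPC1, a riser outside the lists, stood at 276, 290.5, 293, 201 and 281 CPM in controls and 455, 719, 688, 615 and 689 CPM at the high dose and rose by 1.24 ± 0.18 (adjusted p 0.00121). ABCA2, a lipid carrier of lysosomes, stood at 73.7, 68.4, 78.3, 72.4 and 70.1 CPM in controls and 38.4, 37.2, 45.9, 49.99 and 44.2 CPM at the high dose and fell by 0.75 ± 0.08 (adjusted p 0.000115). None of the 3 overlapped between the groups, and all 3 were called in each of the 10 fits that left out 1 library. Phospholipid-transporting ATPase ID (ATP8B2), a flippase outside the lists, fell by 0.84 ± 0.15 (adjusted p 0.00516). ABCA13 had 0.0426, 0.113, 0.0954, 0.0857 and 0.0754 CPM at the high dose and 0.0907, 7.54, 11.8, 0 and 13.7 CPM in controls, so controls 1 and 4 lay at the high dose level. Its log2 fold change was -6.25 (adjusted p 0.0248), limma voom did not call it (adjusted p 0.596), and its call was lost without control 5 or high dose 1, 3, 4 or 5 (adjusted p up to 0.0676).

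Of 34 amino acid carriers 1 rose and 1 fell (5.88%). At an unadjusted p under 0.05 there were 15, while DESeq2 called 8 and limma voom 0. SLC3A1, the heavy chain of the cystine carrier of kidney and gut, stood at 1.77, 2.32, 2.55, 2.69 and 3.73 CPM in controls and 69.2, 10.5, 16.5, 9.17 and 6.33 CPM at the high dose. Replicate 1, the library with kidney markers, was the highest, and the other 4 were also above all controls. The log2 fold change was 3.10 ± 0.57 (adjusted p 0.00762) with it and 2.02 (adjusted p 0.000677) without it. The glycine carrier SLC6A9 fell by 0.92 (adjusted p 0.0321) and lost its call without control 3, 4 or 5 or high dose 1, 3 or 4 (adjusted p up to 0.08).

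Of the metal, phosphate and ion carriers 5 rose and 1 fell of 89 (6.74%, against 3.56% of all names). The ferrous iron carrier SLC11A2 (DMT1) stood at 91.9 to 128 CPM in controls and 157 to 215 CPM at the high dose and rose by 0.77 ± 0.15 (adjusted p 0.0114). Ferritin heavy chain (FTH1), which stores iron, stood at 4422 to 6031 CPM in controls and 7996 to 18471 CPM at the high dose and rose by 0.997 ± 0.22 (adjusted p 0.0211), a call lost without control 1, 2 or 5 (adjusted p up to 0.0623). SLC25A39, the mitochondrial glutathione carrier also tied to heme synthesis, rose by 0.60 ± 0.10 (adjusted p 0.00255). Hemojuvelin (HJV), which was counted in the list of TGF-beta and BMP signalling and is the coreceptor through which BMPs induce hepcidin in mammals, fell from 36.8 ± 8.11 to 19.0 ± 3.39 CPM (log2 fold change -0.96 ± 0.21, adjusted p 0.0189), a call lost without control 5 or high dose 3 (adjusted p up to 0.0523). FRRS1, a ferric reductase outside the lists, fell by 0.99 ± 0.16 (adjusted p 0.00333). The phosphate exporter XPR1 rose by 0.35 (adjusted p 0.0372) and lost its call without control 1, 2, 4 or 5 or high dose 2, 3, 4 or 5 (adjusted p up to 0.103). The faller of the list was the glycerol channel AQP9, which stood at 115 to 150.1 CPM in controls and 53.6 to 96.7 CPM at the high dose and fell by 0.70 ± 0.16 (adjusted p 0.0256), a call lost without control 1, 4 or 5 or high dose 5 (adjusted p up to 0.0753).

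Some carriers typical of kidney were higher in all 5 high dose libraries, and their size depended on replicate 1. The phosphate carrier SLC34A1 stood at 1.77, 5.35, 3.85, 3.26 and 2.80 CPM in controls and 1208, 12.6, 32.4, 18.0 and 11.3 CPM at the high dose, and its scaffold protein PDZK1, which was picked with its values in view, at 1.91, 1.80, 1.03, 1.73 and 0.659 and 105, 14.9, 12.3, 15.6 and 3.05 CPM. Both lay above all controls in replicates 2 to 5, where cubilin was at 0.339 to 1.01 CPM, against 0.110 to 1.24 CPM in controls. The kidney marker sum was at or below 57.9 CPM there, but it includes SLC34A1 itself and SLC12A1. The marker SLC12A3 stood at 1.24, 0.811, 1.11 and 0.942 CPM in replicates 2 to 5 and at 0.544 to 0.879 CPM in controls. Whether kidney tissue had a part in these replicates was not tested. Log2 fold changes fell from 6.25 to 2.46 for SLC34A1 and from 4.39 to 2.996 for PDZK1 when replicate 1 was left out (adjusted p 0.00202 and 0.00186). With all libraries, the call of SLC34A1 was lost without control 1, 2, 4 or 5 (adjusted p up to 0.0636). SLC12A1, the salt carrier of the kidney's thick limb, went the other way, at 56.7, 31.5, 13.6, 48.6 and 42.7 CPM in controls and 38.4, 1.63, 0.334, 0.386 and 1.54 CPM at the high dose. Replicate 1 lay within the control range and the other 4 were below all controls. It was not called with all libraries (-2.18, adjusted p 0.345) and fell by 5.31 without replicate 1 (adjusted p 0.00382), a contrast noticed after its values were seen. The 5 medium dose libraries stood at 0.941, 30.7, 44.8, 19.0 and 21.2 CPM.

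**Figure D4:**
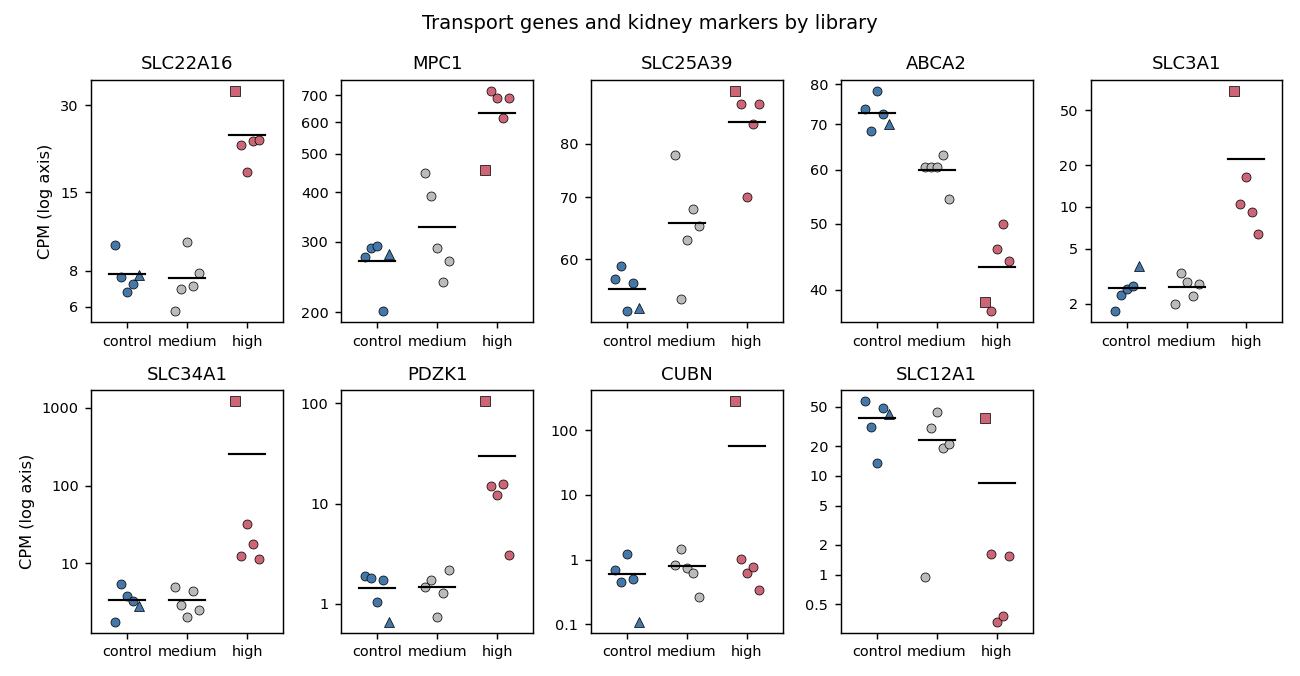
Level of 8 transport genes and the kidney marker CUBN in each of the 15 quail libraries (CPM on a log axis), with a line at the group mean; squares mark high dose replicate 1 and triangles control replicate 5. CUBN is high in replicate 1 alone, whereas SLC34A1, PDZK1 and SLC3A1 exceed all controls in the other 4 high dose libraries too, and SLC12A1 lies below all controls in those 4.

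Insulin and mTOR signalling held 3 risers and 3 fallers of 71 (8.45%, against 3.56% of all names). FNIP2, a folliculin partner that acts on mTORC1 and AMPK, stood at 43.9, 38.9, 32.6, 40.0 and 29.0 CPM in controls and 16.0, 15.6, 12.3, 12.4 and 10.6 CPM at the high dose. The lowest control was 1.81-fold above the highest high dose library, and the log2 fold change was -1.46 ± 0.15 (adjusted p 6.1e-05). IRS2, the main insulin receptor substrate of mammalian liver, stood at 17.3, 12.5, 13.8, 14.7 and 8.73 CPM in controls and 28.1, 21.2, 43.0, 22.7 and 53.1 CPM at the high dose and rose by 1.33 ± 0.28 (adjusted p 0.0188). IRS4 rose by 0.61 (adjusted p 0.0351), and the regulatory subunit PIK3R1 fell by 0.65 (adjusted p 0.0464). IRS4 lost its call without control 1, 2, 4 or 5 or high dose 3 or 5 (adjusted p up to 0.0873), and PIK3R1 without any 1 of the 5 controls or high dose 2, 3, 4 or 5 (adjusted p up to 0.108). PIK3C2G, a liver PI3-kinase, fell by 2.77 (adjusted p 0.0284) and lost its call without control 1 or 5 or high dose 3, 4 or 5 (adjusted p up to 0.081). Salt-inducible kinase 1 (SIK1), a cAMP-induced kinase that restrains gluconeogenic genes in mammals and was picked here with its values in view, stood at 3.99 to 7.09 CPM in controls and 8.96 to 27.4 CPM at the high dose and rose by 1.67 ± 0.32 (adjusted p 0.00957).

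In the MAP kinase list 2 rose and 4 fell of 87 (6.90%, against 3.56% of all names). ERBB2, a receptor tyrosine kinase, stood at 57.3, 47.1, 51.3, 52.7 and 51.6 CPM in controls and 45.3, 33.2, 32.2, 36.1 and 33.9 CPM at the high dose and fell by 0.52 ± 0.11 (adjusted p 0.015) without overlap. MET, the receptor of hepatocyte growth factor, fell from 39.2 ± 8.95 to 24.5 ± 2.18 CPM (log2 fold change -0.68 ± 0.15, adjusted p 0.0226), a call lost without control 1 or 4 or high dose 5 (adjusted p up to 0.0609). Beta-klotho (KLB), the coreceptor of FGF19 and FGF21, and the kinase MAP3K14 fell, with log2 fold changes of -0.59 and -0.79 (adjusted p 0.0452 and 0.0236), and their calls were lost without any 1 of the 5 controls or high dose 1, 3, 4 or 5 (adjusted p up to 0.106) for KLB and without control 2, 3 or 5 or high dose 4 or 5 (adjusted p up to 0.0628) for MAP3K14. The risers of the list were the transcription factor MYC and the phosphatase DUSP16. MYC stood at 9.07, 7.09, 9.29, 8.50 and 10.2 CPM in controls and 16.8, 14.98, 24.7, 17.5 and 29.2 CPM at the high dose, without overlap, and rose by 1.23 ± 0.19 (adjusted p 0.00177). DUSP16 rose by 0.56 (adjusted p 0.0441) and lost its call without control 1, 2, 4 or 5 or high dose 1, 3, 4 or 5 (adjusted p up to 0.102). EPS8, a substrate of the EGF receptor that is not in the list, rose by 1.36 ± 0.21 (adjusted p 0.00205).

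Among Wnt, Notch, Hedgehog and Hippo genes 1 rose and 2 fell of 97, close to the share over all names. The Wnt receptors FZD9 and FZD7 were the fallers. FZD9 stood at 278, 289, 273, 351 and 306 CPM in controls and 107, 211, 106, 159 and 133 CPM at the high dose, and FZD7 at 32.6, 27.6, 37.4, 30.7 and 29.8 and 21.2, 21.2, 22.8, 21.6 and 16.3 CPM. Both were without overlap, with log2 fold changes of -1.06 ± 0.19 and -0.62 ± 0.11 (adjusted p 0.0057 and 0.00758). The Hippo scaffold AMOT rose by 0.38 (adjusted p 0.0237) and lost its call without control 2, 4 or 5 or high dose 4 or 5 (adjusted p up to 0.0689). In the TGF-beta, activin and BMP list 4 of 51 fell (7.84%, against 3.56% of all names called). These were the ligands INHBA and INHBC, the coreceptor HJV and the activin receptor ACVR2B (-0.68, adjusted p 0.0443), which lost its call in each of the 10 fits that left out 1 library (adjusted p up to 0.11). WFIKKN1, a secreted inhibitor of myostatin named from the netrin family pattern, fell from 43.4 ± 6.46 to 19.7 ± 5.43 CPM (log2 fold change -1.14 ± 0.23, adjusted p 0.0137).

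Nuclear receptors and cofactors counted 1 riser, PPARG, and 2 fallers of 55 (5.45%, against 3.56% of all names). NR0B1 (DAX1), an orphan receptor that represses other nuclear receptors, stood at 15.5, 16.1, 7.02, 20.3 and 8.84 CPM in controls and 2.51, 3.21, 1.05, 1.501 and 0.528 CPM at the high dose and fell by 2.96 ± 0.44 (adjusted p 0.00152). ARNT2, a partner of basic helix-loop-helix PAS factors, fell by 0.56 ± 0.12 (adjusted p 0.0199), a call lost without control 1 or high dose 3 (adjusted p up to 0.0593). Interferon and cytokine genes counted 1 riser and 3 fallers of 73 (5.48%, against 3.56% of all names), with a median of -0.20. Without high dose replicate 1 they counted 1 riser and 1 faller, where 3.25% of all names were called. The antiviral kinase EIF2AK2 stood at 9.12, 8.38, 7.23, 11.4 and 21.8 CPM in controls and 4.73, 5.35, 5.15, 4.93 and 4.63 CPM at the high dose. Control replicate 5, the library labelled day 16, was the highest, and no high dose library reached the controls. The log2 fold change was -1.23 ± 0.24 (adjusted p 0.0107), or -0.86 without control replicate 5 (adjusted p 0.00487). The antiviral GTPase MX (MX1), also highest in control replicate 5 at 128 CPM, fell by 1.08 (adjusted p 0.038) and lost its call without control 1, 2, 4 or 5 or high dose 1 or 5 (adjusted p up to 0.0919). The interleukin 6 receptor IL6R fell by 0.50 (adjusted p 0.0335) and lost its call without control 1, 2, 4 or 5 or high dose 1, 3, 4 or 5 (adjusted p up to 0.0891).

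**Figure D5:**
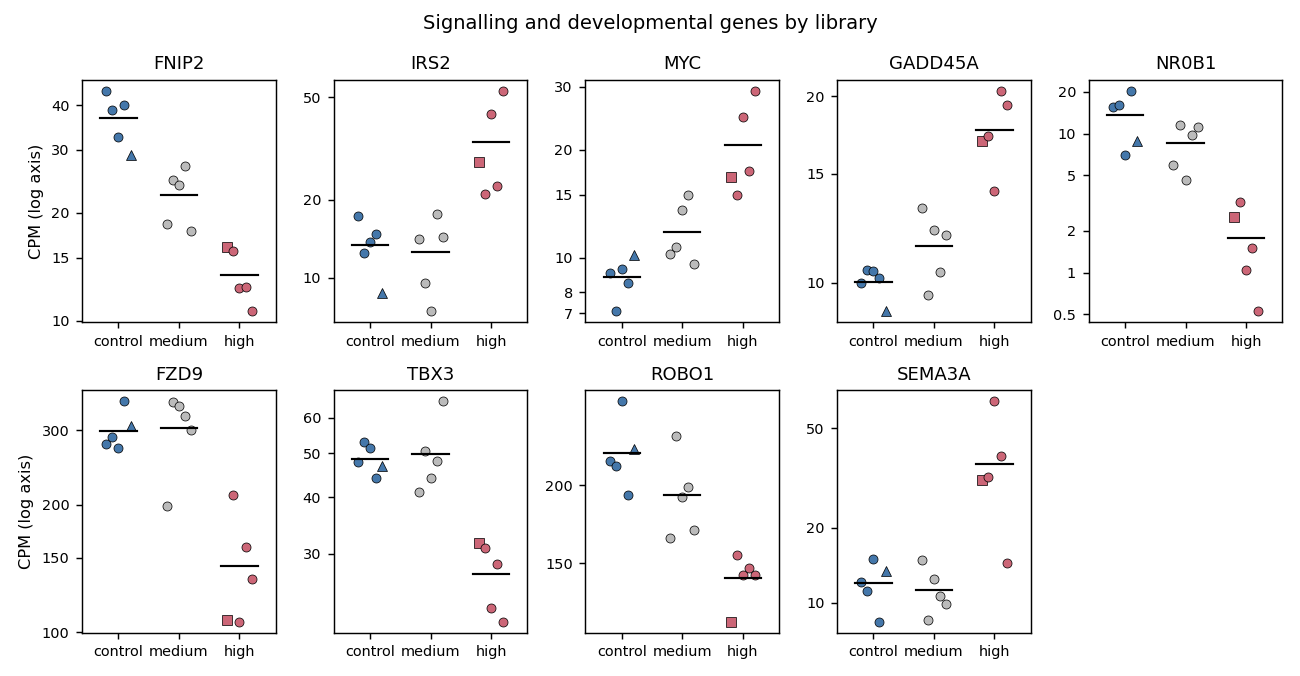
Level of 9 signalling and developmental genes in each of the 15 quail libraries (CPM on a log axis), with a line at the group mean; squares mark high dose replicate 1 and triangles control replicate 5. FNIP2, NR0B1, FZD9, TBX3 and ROBO1 lie lower in every high dose library than in any control, and IRS2, MYC and GADD45A higher.

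Called transcription factors of liver development changed by less than 1 on the log2 scale. Of 73 tested genes of the list 3 rose and 4 fell (9.59%, against 3.56% of all names), and 2 rose and 1 fell without high dose replicate 1. TBX3, which keeps hepatoblasts proliferating and on the hepatocyte path in mice, stood at 48.0, 53.0, 51.3, 44.1 and 46.9 CPM in controls and 31.6, 30.9, 22.7, 28.4 and 21.2 CPM at the high dose and fell by 0.85 ± 0.13 (adjusted p 0.00235) without overlap. FOXA2, a pioneer factor of liver genes, and CEBPA, a factor of hepatocyte maturation, fell, with log2 fold changes of -0.49 and -0.56 (adjusted p 0.0422 and 0.0443). FOXA2 lost its call without any 1 of the 5 controls or high dose 1, 3 or 5 (adjusted p up to 0.0969), and CEBPA without control 1, 2, 3 or 4 or high dose 1, 3 or 5 (adjusted p up to 0.118). CEBPD, an acute-phase relative, rose by 0.80 (adjusted p 0.0299) and GATA5 by 0.50 (adjusted p 0.0193). CEBPD lost its call without any 1 of the 5 controls or high dose 3 or 5 (adjusted p up to 0.0783), and GATA5 without control 2 or high dose 5 (adjusted p up to 0.0516). The stress factor ATF4 fell by 0.62 (adjusted p 0.0335) and lost its call without control 1, 2 or 4 or high dose 1, 3, 4 or 5 (adjusted p up to 0.0943). HNF4A, the central hepatocyte factor and one of the hepatocyte markers, had a log2 fold change of 0.74 and was not called (adjusted p 0.1), although it was by DESeq2 (0.0331) and without high dose replicate 5 (0.0369). ARID3A, a DNA-binding protein outside the lists, stood at 58.4 to 66.3 CPM in controls and 33.9 to 50.6 CPM at the high dose and fell by 0.65 ± 0.10 (adjusted p 0.00215). The fetal plasma protein alpha-fetoprotein (AFP) ranged over 6.76 to 74.6 CPM in controls and 32.2 to 265 CPM at the high dose, groups that overlapped (log2 fold change 2.35, adjusted p 0.129). It was called without control replicate 4, at a log2 fold change of 3.40 (adjusted p 0.0341), and by DESeq2 (adjusted p 0.0405). HNF4A and AFP were picked with their values in view.

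In the list of cell cycle and DNA replication genes 0.943% were called, against 3.56% of all names. Of 106 cell cycle and DNA replication genes 1 rose, the growth arrest gene GADD45A, at 9.98, 10.5, 10.5, 10.2 and 9.00 CPM in controls and 16.96, 17.2, 14.1, 20.4 and 19.4 CPM at the high dose, with a log2 fold change of 0.81 ± 0.11 (adjusted p 0.00108). The median of that list was -0.031. Borealin 2 and the centromere protein CENPV, both outside that list, rose by 1.98 ± 0.23 and 0.96 ± 0.13 (adjusted p 0.000162 and 0.000964).

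Matrix and adhesion genes counted 8 risers and 1 faller of 125 (7.20%, against 3.56% of all names), and 6 risers and 1 faller without high dose replicate 1. Besides fibronectin they included osteopontin and MMP17. Osteopontin (SPP1), a secreted matrix protein and bile duct marker, stood at 13.5, 14.5, 10.7, 12.1 and 12.5 CPM in controls and 187, 51.8, 62.2, 26.5 and 38.4 CPM at the high dose. All high dose libraries were above all controls and replicate 1 was the highest. The log2 fold change was 2.53 ± 0.43 (adjusted p 0.00443), and 1.82 without that replicate. Of the 7 bile duct markers tested 2 were called, SPP1 among them, while EPCAM and KRT19 changed by 0.31 and 0.41 (adjusted p 0.586 and 0.41). MMP17, a membrane-bound metalloproteinase, rose from 0.675 ± 0.399 to 7.76 ± 5.25 CPM (log2 fold change 3.49 ± 0.65, adjusted p 0.00787), with replicate 4 at 0.772 CPM inside the control range, and limma voom did not call it (adjusted p 0.146). The basement membrane proteins agrin (AGRN) and laminin gamma 3 (LAMC3), the proteoglycan SDC2 and the protease ADAMTS9 rose by 0.60, 1.19, 0.51 and 0.49 (adjusted p 0.0464, 0.0452, 0.0311 and 0.0464). Each lost its call without single libraries: AGRN without any 1 of the 5 controls or high dose 3, 4 or 5 (adjusted p up to 0.118), LAMC3 without any 1 of the 5 controls or high dose 1, 3 or 4 (adjusted p up to 0.108), SDC2 without control 1, 2, 3 or 5 or high dose 2, 3, 4 or 5 (adjusted p up to 0.0787), and ADAMTS9 without control 1, 2 or 4 or high dose 3, 4 or 5 (adjusted p up to 0.126). The faller was the protease ADAMTS17, from 30.2 ± 10.1 to 8.88 ± 3.35 CPM (-1.77 ± 0.40, adjusted p 0.0225), a call lost without control 1 or 4 or high dose 3 or 5 (adjusted p up to 0.0627). Among 58 collagens and 37 integrins edgeR called 0, with 3 and 7 at an unadjusted p under 0.05, DESeq2 0 and 3, and limma voom 0 and 1.

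In the family of semaphorins, plexins, netrins, ephrins and Robo and Slit proteins, which includes molecules that steer growing axons and vessels, 1 rose and 2 fell of 61 (4.92%, against 3.56% of all names). Among the fallers was the receptor ROBO1, and EPHB2, of the family of growth factor and Eph receptors, fell as well. ROBO1, a receptor of Slit proteins, stood at 219, 214, 273, 193 and 229 CPM in controls and 121, 155, 143, 147 and 144 CPM at the high dose, and EPHB2, a receptor of ephrins, at 67.1, 67.2, 64.2, 64.6 and 65.7 and 38.5, 47.1, 49.7, 48.0 and 46.0 CPM. Their log2 fold changes were -0.67 ± 0.12 and -0.52 ± 0.09 (adjusted p 0.00471 and 0.00555), and neither overlapped. The riser was the ligand SEMA3A, which stood at 12.1, 11.1, 14.9, 8.37 and 13.4 CPM in controls and 31.0, 31.9, 64.1, 38.9 and 14.5 CPM at the high dose. Replicate 5 lay within the control range and the other 4 above it, and the log2 fold change was 1.59 ± 0.30 (adjusted p 0.00815).

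Glucose and glycogen genes counted 7 risers and 3 fallers of 72 (13.9%, against 3.56% of all names), with 1 faller without high dose replicate 1. PPP1R3B, which brings protein phosphatase 1 to glycogen and promotes its synthesis, stood at 18.5, 22.6, 16.1, 37.6 and 16.7 CPM in controls and 3.66, 7.04, 2.19, 5.96 and 1.43 CPM at the high dose and fell by 2.47 ± 0.39 (adjusted p 0.00264). PFKFB4, which sets fructose-2,6-bisphosphate, stood at 28.0, 21.7, 50.7, 31.2 and 36.5 CPM in controls and 79.7, 73.7, 104, 87.7 and 154 CPM at the high dose and rose by 1.57 ± 0.25 (adjusted p 0.00229). Neither overlapped between the groups. The gluconeogenic enzyme PCK1 stood at 7.53, 7.35, 10.4, 10.2 and 7.08 CPM in controls and 96.2, 24.95, 56.4, 13.8 and 725 CPM at the high dose. All 5 were above all controls but spread widely, and the log2 fold change of 4.43 ± 1.10 (adjusted p 0.0403) was 2.49 without high dose replicate 5. Its call was lost without any 1 of the 5 controls or high dose 5 (adjusted p up to 0.11), and limma voom did not call it (adjusted p 0.135). Glucose-6-phosphatase (G6PC1), the last step of glucose release, rose by 0.67 ± 0.15 (adjusted p 0.0194), a call lost without control 4 or high dose 5 (adjusted p up to 0.0587). PGM2 rose by 1.21 ± 0.25 (adjusted p 0.0137), and PGM1 fell by 0.40 (adjusted p 0.0488), a call lost without control 1, 2, 4 or 5 or high dose 1, 3, 4 or 5 (adjusted p up to 0.12). UGDH, which makes the UDP-glucuronate used in conjugation, stood at 62.2 to 112 CPM in controls and 251 to 499 CPM at the high dose and rose by 2.15 ± 0.21 (adjusted p 3.8e-05), and TALDO1 of the pentose phosphate pathway rose by 0.46 (adjusted p 0.0301), a call lost without control 1, 2, 3 or 4 or high dose 1, 4 or 5 (adjusted p up to 0.0842).

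In amino acid and one-carbon metabolism 4 rose and 4 fell of 104 (7.69%, against 3.56% of all names). GATM, which makes the precursor of creatine, stood at 1866, 1319.6, 1618, 1968 and 1309.5 CPM in controls and 554, 814, 561, 878 and 478 CPM at the high dose and fell by 1.30 ± 0.25 (adjusted p 0.0103). ALDH18A1, the first enzyme of proline synthesis, fell from 215 ± 30.3 to 120.0 ± 36.5 CPM (log2 fold change -0.84 ± 0.17, adjusted p 0.0139), and PRODH, which degrades proline, rose by 2.37 (adjusted p 0.0275), or by 1.73 without high dose replicate 3, a call lost without control 1, 3, 4 or 5 or high dose 3 or 5 (adjusted p up to 0.0695). A PRODH-like feature rose by 2.49 ± 0.51 (adjusted p 0.0139). AHCY, which clears S-adenosylhomocysteine, stood at 563 to 687 CPM in controls and 874 to 1724 CPM at the high dose and rose by 0.88 ± 0.18 (adjusted p 0.0131). The folate enzymes moved apart: the cytoplasmic C-1-tetrahydrofolate synthase (MTHFD1) rose by 1.37 and the mitochondrial MTHFD2 fell by 0.91 (adjusted p 0.0488 and 0.0421). MTHFD1 lost its call without any 1 of the 5 controls or high dose 3, 4 or 5 (adjusted p up to 0.123), and MTHFD2 without any 1 of the 5 controls or high dose 3, 4 or 5 (adjusted p up to 0.111). Xanthine dehydrogenase (XDH), the last enzyme of uric acid synthesis, stood at 68.1, 51.7, 87.2, 61.1 and 74.0 CPM in controls and 512, 77.5, 285, 176 and 91.4 CPM at the high dose and rose by 1.74 ± 0.42 (adjusted p 0.0343), or by 1.202 without high dose replicate 1 (adjusted p 0.0649), and its call was lost without any 1 of the 5 controls or high dose 1 or 3 (adjusted p up to 0.0891).

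Of the heme list 6 rose and 1 fell of 30 (23.3%, against 3.56% of all names). ALAS1, the rate-limiting enzyme of heme synthesis, stood at 139, 77.7, 142, 83.2 and 139 CPM in controls and 1941, 1727, 2249.9, 3451 and 2123 CPM at the high dose. Every high dose library was above every control, and the log2 fold change, 4.30 ± 0.25, had the smallest p-value of the list (adjusted p 7.4e-08). Cytochrome b5 (CYB5A) and P450 oxidoreductase (POR), both electron donors to P450 enzymes, rose by 1.38 ± 0.15 and 0.71 ± 0.12 (adjusted p 8.5e-05 and 0.00475), and the heme-binding PGRMC1 by 1.23 ± 0.13 (adjusted p 6.0e-05). Heme oxygenase 1 (HMOX1), which degrades heme, rose by 0.58 (adjusted p 0.0407) and lost its call without control 1, 2, 3 or 5 or high dose 1, 3, 4 or 5 (adjusted p up to 0.0932). TSPO2, an erythroid relative of the translocator protein, fell by 1.31 ± 0.27 (adjusted p 0.0134). It stood at 1.31 to 3.13 CPM in controls and 0.620 to 1.16 CPM at the high dose, while the 8 erythroid markers matched summed to 1884 to 5013 CPM in controls and 1736 to 2636 CPM at the high dose.

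Outside the lists and the cytochromes P450, most of the risers with the smallest p-values were UDP-glucuronosyltransferases of family 1, which attach glucuronic acid to bilirubin, hormones and foreign compounds. Of the 13 UDP-glucuronosyltransferase names tested 11 rose and 0 fell (84.6%), and reads of these near-identical proteins may be split between names. The feature named UDP glucuronosyltransferase 1 1 stood at 229.7, 231, 189.6, 272 and 259.9 CPM in controls and 612, 655, 796, 814 and 697 CPM at the high dose, without overlap, and rose by 1.60 ± 0.14 (adjusted p 2.3e-05). The tubulin-binding protein TPPP stood at 0.136, 0.258, 0.482, 0.384 and 0.165 CPM in controls and 16.0, 2.53, 19.6, 10.4 and 30.1 CPM at the high dose (log2 fold change 5.82 ± 0.65, adjusted p 0.000115). OSGIN1, named as an oxidative stress induced growth inhibitor, stood at 54.0 to 80.2 CPM in controls and 112 to 257 CPM at the high dose and rose by 1.55 ± 0.20 (adjusted p 0.000457). The transmembrane protein TMEM139 stood at 0.0907, 0.258, 0.206, 0.256 and 0.110 CPM in controls and 5.07, 0.901, 12.9, 9.30 and 31.2 CPM at the high dose (log2 fold change 6.02 ± 0.79, adjusted p 0.000566), or 5.26 without high dose replicate 5, and limma voom did not call it (adjusted p 0.111). The neuronal pentraxin NPTX2 stood at 0.318 to 0.757 CPM in controls and 1.97 to 5.44 CPM at the high dose (log2 fold change 2.52 ± 0.34, adjusted p 0.000851), the endoplasmic reticulum nucleotidase ENTPD5 at 84.4 to 104 CPM in controls and 157 to 221 CPM at the high dose (1.02 ± 0.14, adjusted p 0.000851) and the centromere protein CENPV at 19.3 to 23.6 CPM in controls and 36.0 to 50.2 CPM at the high dose (0.96 ± 0.13, adjusted p 0.000964). Among fallers, the SNARE regulator CPLX2 stood at 1.74 to 3.26 CPM in controls and 0.191 to 0.469 CPM at the high dose (log2 fold change -2.59 ± 0.37, adjusted p 0.00121), the tetraspanin TSPAN8 at 7.16 to 14.2 CPM in controls and 1.21 to 3.49 CPM at the high dose (-2.25 ± 0.33, adjusted p 0.00147) and the phosphatase PTPN3 at 15.1 to 24.9 CPM in controls and 9.12 to 10.6 CPM at the high dose (-0.99 ± 0.14, adjusted p 0.000949). PSD3, an exchange factor for ARF6, fell by 0.997 ± 0.15 (adjusted p 0.00163), the deaminase ADA2 fell by 0.90 ± 0.15 (adjusted p 0.00443), and PKIG, an inhibitor of protein kinase A, fell by 1.46 ± 0.24 (adjusted p 0.00287). C1QL1, a secreted C1q-domain protein that is not part of the complement cascade, stood at 16.5 to 28.4 CPM in controls and 2.29 to 6.86 CPM at the high dose (log2 fold change -2.26 ± 0.28, adjusted p 0.000266). None of these overlapped between the groups. Of large protein families, edgeR called 0 of 102 ribosomal proteins, 0 of 123 respiratory chain and ATP synthase subunits and 0 of 79 heat shock and DnaJ proteins. At an unadjusted p under 0.05 there were 12, 4 and 7 of these, by DESeq2 3, 0 and 0, and by limma voom 0 in each.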

How the data were processed

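RNA-seq read counts per protein name were deposited by the authors as whole-number counts for each library, in 1 quail table, and were not normalised. The table's name points to Seq2Fun with all birds as reference, no source used here gives its version or settings, and edgeR is listed per the submitters' processing notes. The 15 quail libraries (control, medium and high dose, 5 each) were fitted together with edgeR 4.0.16 in R 4.3.3 (TMM scaling, filterByExpr, robust quasi-likelihood test, Benjamini-Hochberg adjustment), and the contrast was high dose minus control. Columns labelled S were taken as control from their titles. Cormorant libraries were not used. The fit was also run on simulated counts with known changes, and its outcome is not given here. No simulated library held other tissue or another age, so that run cannot speak to high dose replicate 1 or control replicate 5. Alternatives were RLE scaling, no filter, DESeq2 1.42.0, limma 3.58.1 voom, a fit of the 10 libraries alone, a replicate block, leaving out each library, and, chosen after seeing the data, leaving out 4 libraries with markers of other tissues.

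Genes named are the called members of each list with the smallest p (up to 8), the 15 risers and 15 fallers with the smallest p outside the lists and the cytochromes P450 (average log2 CPM of 0 or more), up to 3 risers and 3 fallers of each protein family, and, chosen after their values were seen, AFP, ALB, APOA1, APOB, CPT1A, CUBN, EPCAM, FASN, FGA, FGB, FGG, HNF4A, KRT19, PDZK1, SIK1, SLC12A1, SPP2 and SREBF1. Some of these genes are not reported here, though the counts include them. Members and lists were chosen with earlier results of these data known. Symbols were assigned to protein names by hand. Labels say only that each library is a separate liver, so p-values measure only how these livers spread, and the precision is set by 5 libraries a group and by library totals of 15094176 to 26436594 counts.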

Additional observations from a re-analysis of the deposited data

Results flagged for a closer look

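For genes given above, the highest and lowest values in each group of 5 libraries were compared with their neighbours by Dixon's ratio. A ratio above 0.71 counted as standing apart, which chance alone gives in about 1 in 20 groups. Some markers of other tissues named above, among them CALB1, PAX2, GCG, CDH17 and SLC12A3, were not among the genes checked. Levels are in CPM, with the next value of the same group after each. Control replicate 1 was the highest for GM2A at 357 (next 70.7). Control replicate 2 was the lowest for F2 at 2468 (next 2832). Control replicate 3 was the lowest for PGM1 at 149 (next 193). Control replicate 4 was the highest for AFP at 74.6 (next 14.5), AQP9 at 150.1 (next 125), CPLX2 at 3.26 (next 2.03) and FGB at 9611 (next 6423). Control replicate 4 was the lowest for MPC1 at 201 (next 276). Control replicate 5 was the highest for EIF2AK2 at 21.8 (next 11.4) and MX1 at 128 (next 74.2). High dose replicate 1 was the highest for CUBN at 278 (next 1.01), EHHADH at 442 (next 301) and PDZK1 at 105 (next 15.6). It was also the highest for SLC12A1 at 38.4 (next 1.63), SLC16A6 at 37.4 (next 15.2), SLC26A1 at 30.9 (next 6.06) and SLC34A1 at 1208 (next 32.4). It was also the highest for SLC3A1 at 69.2 (next 16.5) and SPP1 at 187 (next 62.2). High dose replicate 1 was the lowest for C3 at 29.6 (next 82.7), GATA5 at 36.4 (next 46.7), SLC16A7 at 52.7 (next 86.1) and VTN at 2189 (next 2969.9). High dose replicate 3 was the highest for FTH1 at 18471 (next 9707), IRS4 at 69.2 (next 44.2) and SLC51B at 114 (next 28.9). High dose replicate 4 was the highest for POR at 63.1 (next 48.4). High dose replicate 5 was the highest for CEBPD at 81.7 (next 53.2) and PCK1 at 725 (next 96.2). High dose replicate 5 was the lowest for FZD7 at 16.3 (next 21.2). Of the 30 values that stood apart among the genes checked, 13 belonged to high dose replicate 1, the library with kidney markers. Their cause was not tested. The number of groups checked is not given, so the 30 cannot be set against the share that chance alone gives.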

How the results depend on the processing

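DESeq2 called 972 names changed, 566 up and 406 down, against 531, 316 and 215, and the cause was not tested. Leaving out 4 libraries with markers of other tissues gave 377 changed and 135 down. Leaving out 1 library at a time gave 303 to 659 changed, 193 to 402 up and 107 to 257 down. RLE scaling gave 525, no filter 417, limma voom 436 and the fit of the 10 libraries alone 374, all within 1.5 times of 531. Of the 127 called list members all 127 had the same direction in each of these fits except 126 in the fit of the 10 libraries. Counts per list were less steady: of the 27 lists 14 kept a total within 1.5 times under DESeq2, 22 under limma voom, 20 under the replicate block, 20 without the 4 libraries, and 12 to 24 when 1 library was left out. The uncalled APOB changed sign, at -0.0009 to 0.35 on the log2 scale when 1 library was left out. Replicate numbers come from the titles, which do not say that they pair samples, and the correlations of deviations from the group means (0.0196, 0.0303, 0.12, -0.0621 and 0.147) were not all over 0.1. With the replicate number as a block, 416 names were called, 243 up and 173 down. Levels below about 1 CPM rest on few reads, and reads of near-identical proteins may be split between names. Control replicate 5 is labelled with another age, and no second library of that age allows age and group to be told apart there.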
